A study of Mus musculus with 6 samples.

Results

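The genes described here encode 10 enzymes that make serine, pass its carbon through folate, and make proline and asparagine: Phgdh, Psat1, Psph, Shmt1, Shmt2, Mthfd2, Mthfd1l, Aldh1l2, Aldh18a1 and Asns. They were taken by name as metabolic enzymes downstream of the transcription factor ATF4 and matched through their Ensembl identifiers, and all 10 were found among the 56941 genes of the count table and passed the filter on low counts that left 18562 genes for testing. RNA was sequenced from primary endothelial cells of mouse lungs, isolated with magnetic beads, cleared of dead cells and kept in endothelial medium with serum. The EC-KO group (3 libraries, genotype FUNDC1-KO) carried an endothelial knockout of Fundc1, a mitophagy receptor of the outer mitochondrial membrane, and the FL group (3 libraries, genotype FUNDC1-FLOX) carried the floxed gene. The sources used here do not name the driver of the deletion, the strain, the age of the mice or the time in culture, and the titles call the cells PAECs. Whether each library had its own mouse is not stated either, so p-values reflect library-to-library spread, which may be technical.

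Serine is made from an intermediate of glycolysis in a short pathway that begins with Phgdh, continues with Psat1 and ends with Psph. The SHMT enzymes then split serine into glycine and a carbon unit carried on folate, Shmt1 mainly in the cytosol and Shmt2 in mitochondria, and mitochondrial enzymes such as Mthfd2, Mthfd1l and Aldh1l2 oxidise or release that unit for purine synthesis, thymidylate synthesis and redox balance. Aldh18a1 commits glutamate to proline, which collagen needs in large amounts, and Asns makes asparagine from aspartate and glutamine. In mammalian cells ATF4 is translated when eIF2alpha is phosphorylated, for instance under amino acid shortage or mitochondrial stress, and Asns, Psat1, Phgdh and Mthfd2 are among its best known targets.

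Of the 10 enzyme genes, 7 were higher in the EC-KO libraries, 0 were lower and 3 did not pass edgeR's test. The count of lower enzymes was also 0 at an unadjusted p under 0.05, with DESeq2 and with limma-voom. The 7 were Psat1, Shmt1, Shmt2, Mthfd2, Aldh1l2, Aldh18a1 and Asns, and their log2 fold changes of EC-KO over FL ran from 0.74 to 1.71. The background was high, since 27.1% of all tested genes were called at an adjusted p under 0.05 in edgeR's quasi-likelihood test, 13.5% as higher and 13.5% as lower. The median log2 fold change was 0.85 over the 10 enzymes and 0.03 over all tested genes. The enzymes were chosen with earlier results of these data known. In each of the 7, every EC-KO library lay above every FL library, which held for 22.6% of tested genes, while the reverse held for 22.8%. With 1 library left out, 6 enzymes were called higher without EC-KO 2, 4 without EC-KO 1, EC-KO 3, FL 1 or FL 2, and 3 without FL 3. The count of all genes called was 2832 without EC-KO 1, 2626 without FL 2 and 2547 without FL 3, against 5029 with all libraries. The first and the last enzyme of serine synthesis, Phgdh and Psph, and the mitochondrial folate enzyme Mthfd1l overlapped between groups.

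**Figure D1:**
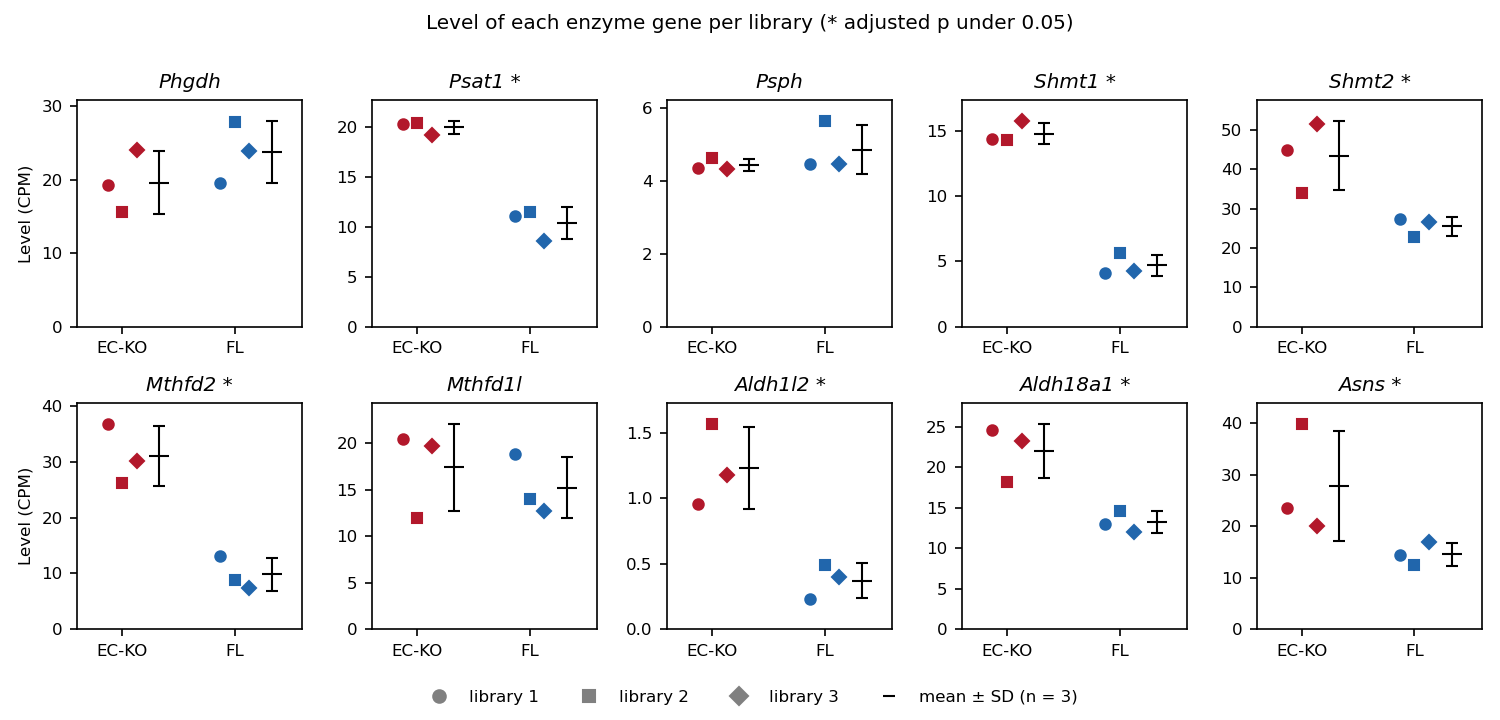
Level of each of the 10 enzyme genes in CPM (counts scaled to library size, linear axis from 0) in the 3 EC-KO and 3 FL libraries, with library numbers as symbols and the mean ± SD of each group as bars. The 7 genes with an asterisk passed the test, and in each of them all EC-KO points lie above all FL points.

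The targeted gene was checked first. Fundc1 was at 14.1, 18.2 and 12.8 CPM in EC-KO 1, 2 and 3, against 25.1, 32.0 and 30.7 CPM in FL 1, 2 and 3, where CPM is the usual per-million scale after TMM scaling of library sizes. It fell by 0.96 on the log2 scale (SE 0.19, adjusted p = 0.00796 in edgeR), and transcripts remained in every EC-KO library. Total gene counts were 26658998 to 34306962 per library. The share of alignments assigned to genes was lower in every EC-KO library (72.4% to 74.7%) than in every FL library (75.5% to 77.8%). The share of alignments that overlapped no counted feature was 14.4% in EC-KO 3. It was 10.5% and 10.8% in EC-KO 2 and EC-KO 1 and 9.10% to 10.8% in FL libraries. Over all genes EC-KO 2 stood apart from its group, with a chi-square per gene of 116 against EC-KO 1 and 128 against EC-KO 3, beside 29.4 between EC-KO 1 and EC-KO 3 and 34.2 to 62.0 between FL libraries. The isolates held RNA of other lung cells, and their makeup differed between the groups. The summed level of 20 endothelial markers was 4832 to 8687 CPM in EC-KO libraries and 10385 to 13616 CPM in FL libraries, with 12 lower and 0 higher. Sums of 20 epithelial markers were 12082 to 17893 CPM in EC-KO and 2040 to 4670 CPM in FL libraries (19 higher, 0 lower), and sums of 15 fibroblast markers were 2534 to 7473 CPM in EC-KO and 1096 to 1441 CPM in FL libraries (9 higher, 1 lower). The 15 macrophage markers summed to 2554 to 3377 CPM in EC-KO and 5945 to 7739 CPM in FL libraries (0 higher, 14 lower), and no marker of any list was at 0 in any library. Of 12 smooth muscle and pericyte markers 9 were lower and 0 higher, with sums of 310 to 453 CPM in EC-KO and 642 to 898 CPM in FL libraries. Of 7 lymphatic markers 5 were lower and 0 higher, with sums of 532 to 1058 CPM in EC-KO and 1893 to 2683 CPM in FL libraries. The part of these differences in the results for the enzymes was not tested, and in bulk RNA fewer cells of a type and less RNA per cell cannot be told apart.

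Upstream stretches are shown because 7 of the enzymes were called in 1 direction and a binding element for ATF4 is known from the human ASNS promoter. They are the 150 bases before the RefSeq transcription start of Asns and Aldh18a1, which hold a searched motif, and of Mthfd2 and Phgdh, which had the highest and the lowest log2 fold change apart from the scarce Aldh1l2, in GRCm38.p6, on the minus strand, 5′ to 3′, with matched motifs in capitals. Asns lies at chr6:7693210-7693359, Aldh18a1 at chr19:40588464-40588613, Mthfd2 at chr6:83317605-83317754 and Phgdh at chr3:98339970-98340119.
Asns: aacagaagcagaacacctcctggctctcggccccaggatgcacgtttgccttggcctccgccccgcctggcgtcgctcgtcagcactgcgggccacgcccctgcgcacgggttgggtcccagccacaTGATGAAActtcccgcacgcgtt
Aldh18a1: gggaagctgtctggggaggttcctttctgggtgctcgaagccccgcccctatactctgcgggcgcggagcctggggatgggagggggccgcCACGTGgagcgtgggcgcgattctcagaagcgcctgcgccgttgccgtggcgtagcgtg
Mthfd2: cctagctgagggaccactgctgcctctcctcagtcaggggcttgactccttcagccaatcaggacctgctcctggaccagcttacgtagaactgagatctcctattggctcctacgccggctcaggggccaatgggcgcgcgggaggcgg
Phgdh: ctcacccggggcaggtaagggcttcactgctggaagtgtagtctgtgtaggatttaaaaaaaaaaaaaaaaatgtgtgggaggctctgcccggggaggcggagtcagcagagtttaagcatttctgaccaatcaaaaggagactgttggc

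Promoter windows of 300 bases (250 before to 50 after the start) were at hand for 9 of the 10 enzymes, 10 windows in all because Psat1 has a pair of starts. The core of the C/EBP-ATF composite element, TGATGNAA on either strand, was present in the Asns window alone among the 9 enzymes, from 23 to 16 bases before the start, and in 3.97% of all 32851 windows. The E-box CACGTG, which reads the same on both strands and is bound by MYC among others, was present in the Aldh18a1 window alone, from 59 to 54 bases before the start, and in 7.15% of all windows. The cyclic AMP response element TGACGTCA was in 0 windows of the enzymes and in 1.79% of all windows. The searched motifs share no bases in these windows. The RefSeq starts of Asns, Mthfd2 and Phgdh lie inside the GENCODE gene positions printed below. The whole Mthfd2 stretch and the Asns motif therefore lie within those gene positions, so "before the start" refers to the RefSeq start only. A match is a description of letters and not of binding, and elements outside these windows, such as in introns, were not searched. The GC content of the enzymes' windows ranged from 42.7% to 66.7% (median 59.3%), beside a median of 52.7% over all windows.

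Among the enzymes of serine synthesis, the middle step rose while the steps before and after it did not pass the test. Psat1, the phosphoserine aminotransferase (ENSMUSG00000024640, chr19:15904678-15947337 in GRCm38), was at 20.3, 20.4 and 19.3 CPM in EC-KO 1, 2 and 3, against 11.1, 11.5 and 8.59 CPM in FL 1, 2 and 3. Its EC-KO libraries lay close together and all above the FL libraries. It averaged 20.0 ± 0.641 CPM in EC-KO and 10.4 ± 1.58 CPM in FL libraries (SD, n = 3 each), with a log2 fold change of 0.94 ± 0.18 (SE, adjusted p = 0.00668 in edgeR).

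Phgdh, the phosphoglycerate dehydrogenase that starts the pathway (ENSMUSG00000053398, chr3:98313170-98339990), was at 19.2, 15.5 and 24.0 CPM in EC-KO 1, 2 and 3, against 19.5, 27.9 and 23.9 CPM in FL 1, 2 and 3. The groups overlapped, with the lowest value in EC-KO 2 and the highest in FL 2. The log2 fold change was -0.28 with a 95% interval of -0.76 to 0.21 (adjusted p = 0.362 in edgeR), so that a rise as large as that of Psat1 lay outside the interval. Phgdh has near copies in the genome. Of its longest transcript (1893 bases) 89.5% was at least 95% identical to transcripts of 10 other annotated genes, and reads that map to several places were set aside in the authors' counting. Those 10 copies together had 10, 21 and 12 counts in EC-KO 1, 2 and 3 and 4, 17 and 8 counts in FL 1, 2 and 3, beside 495 to 777 counts of Phgdh itself in EC-KO and 514 to 913 in FL libraries. With the copies added the log2 fold change of Phgdh was -0.27 (adjusted p = 0.381 in edgeR), a setting chosen after seeing the data. Its level is nevertheless uncertain, since reads shared with the copies were not counted.

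Psph, the phosphatase that releases serine (ENSMUSG00000029446, chr5:129765558-129787449), was at 4.36, 4.64 and 4.33 CPM in EC-KO 1, 2 and 3, against 4.47, 5.65 and 4.48 CPM in FL 1, 2 and 3. FL 2 was the highest, and the EC-KO libraries overlapped with FL 1 and FL 3. The log2 fold change was -0.13 with a 95% interval of -0.63 to 0.37 (adjusted p = 0.686 in edgeR). Of the exon bases of Psph 10.4% overlap those of Cct6a. Whether reads there were ambiguous is not known, since the strand setting of the counting is not given. Counted as a ratio within each library, which no library scaling can change, Psat1 over Phgdh averaged 0.05 ± 0.36 on the log2 scale in EC-KO and -1.19 ± 0.34 in FL libraries (SD, n = 3 each). The ratios did not overlap between groups (exact permutation test, two-sided, p = 0.1, which is the smallest p that 3 against 3 allows, and 0.1 after adjustment over 6 ratios, which were chosen after seeing the values).

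**Figure D2:**
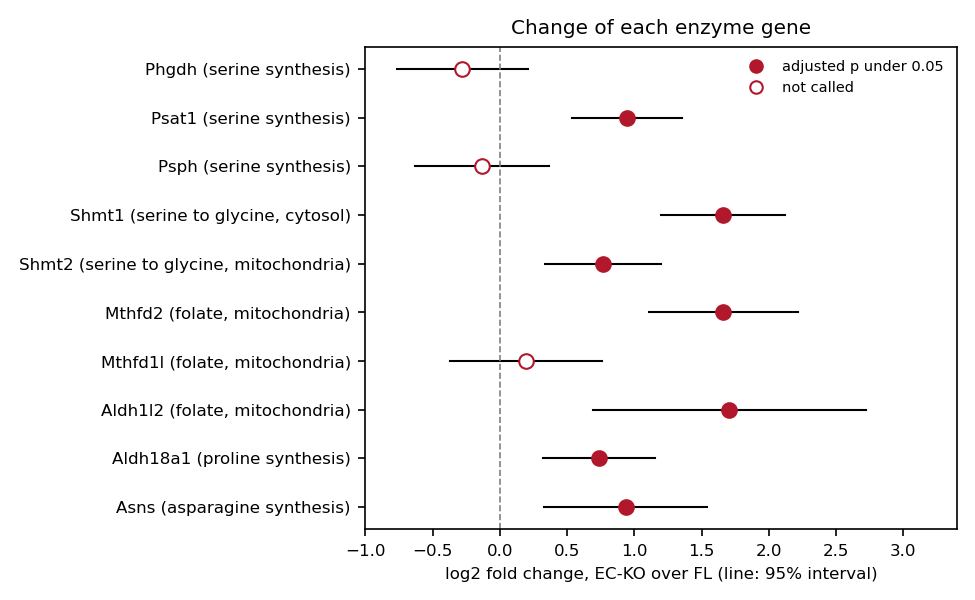
log2 fold change of EC-KO over FL for each enzyme gene with its 95% interval from the edgeR fit, in pathway order from serine synthesis at the top to asparagine synthesis at the bottom. Filled points passed the test, and the intervals of Phgdh, Psph and Mthfd1l cross 0.

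Both hydroxymethyltransferases rose, with a larger estimate for the cytosolic form than for the mitochondrial form. Shmt1 (ENSMUSG00000020534, chr11:60788104-60811718) was at 14.3, 14.3 and 15.7 CPM in EC-KO 1, 2 and 3, against 4.13, 5.62 and 4.26 CPM in FL 1, 2 and 3. Every EC-KO library was far above every FL library, with averages of 14.8 ± 0.834 CPM in EC-KO and 4.67 ± 0.825 CPM in FL libraries (SD, n = 3 each). The log2 fold change was 1.66 ± 0.20 (SE, adjusted p = 0.00105 in edgeR). Shmt2 (ENSMUSG00000025403, chr10:127517123-127522444) was at 44.8, 34.1 and 51.5 CPM in EC-KO 1, 2 and 3, against 27.3, 22.8 and 26.5 CPM in FL 1, 2 and 3. The EC-KO libraries were spread more widely, with EC-KO 2 nearest to FL, and the log2 fold change was 0.77 ± 0.19 (SE, adjusted p = 0.0184 in edgeR). Shmt2 was not called without EC-KO 1 (adjusted p = 0.0632), EC-KO 3 (0.0676), FL 2 (0.0852) or FL 3 (0.0687). The log2 ratio of Shmt1 over Shmt2 counts was -1.54 ± 0.25 in EC-KO and -2.46 ± 0.38 in FL libraries (SD, n = 3 each; exact permutation p = 0.1, the smallest possible; 0.1 after adjustment over the 6 ratios).

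The mitochondrial folate enzymes did not move alike. Mthfd2, the NAD-dependent dehydrogenase and cyclohydrolase that is low in most adult tissues and high in dividing cells (ENSMUSG00000005667, chr6:83305691-83325908), was at 36.8, 26.1 and 30.1 CPM in EC-KO 1, 2 and 3, against 13.1, 8.89 and 7.43 CPM in FL 1, 2 and 3. The groups stood well apart, with EC-KO 1 the highest and FL 3 the lowest library. The average was 31.0 ± 5.40 CPM in EC-KO and 9.81 ± 2.95 CPM in FL libraries (SD, n = 3 each), and the log2 fold change was 1.66 ± 0.25 (SE, adjusted p = 0.00222 in edgeR).

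Mthfd1l, the synthetase that releases formate from mitochondria (ENSMUSG00000040675, chr10:3973118-4167081), was at 20.5, 12.0 and 19.8 CPM in EC-KO 1, 2 and 3, against 18.9, 14.1 and 12.7 CPM in FL 1, 2 and 3. The lowest value of all was that of EC-KO 2, and FL 1 lay close to EC-KO 1 and 3. The log2 fold change was 0.20 with a 95% interval of -0.37 to 0.76 (adjusted p = 0.592 in edgeR), and without FL 1 and EC-KO 2 together it was 0.56 and was called (adjusted p = 0.0291).

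Aldh1l2, the mitochondrial dehydrogenase that oxidises formyl-folate and makes NADPH (ENSMUSG00000020256, chr10:83487450-83534140), was the scarcest of the 10, with 33, 50 and 38 counts in EC-KO 1, 2 and 3 and 6, 16 and 13 counts in FL 1, 2 and 3. These counts correspond to 0.953, 1.57 and 1.18 CPM in EC-KO, against 0.227, 0.489 and 0.396 CPM in FL libraries. The log2 fold change of 1.71 ± 0.45 (SE, adjusted p = 0.0230 in edgeR) had the widest interval of the 10, 0.69 to 2.72. It was not called without EC-KO 2 (adjusted p = 0.0519), EC-KO 3 (0.0557), FL 1 (0.0622) or FL 3 (0.0760), nor without FL 1 and EC-KO 2 together (0.0969). Of its exon bases 14.1% are shared with D10Wsu102e.

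Paralogues and cytosolic counterparts of these enzymes stand beside them. Mthfd1, the cytosolic trifunctional folate enzyme, was at 23.3 to 29.7 CPM in EC-KO and 21.6 to 24.8 CPM in FL libraries (log2 fold change 0.24, adjusted p = 0.302 in edgeR). Mthfd2l, the isozyme of Mthfd2, was at 2.41 to 4.42 CPM in EC-KO and 3.34 to 5.54 CPM in FL libraries (-0.44, adjusted p = 0.313 in edgeR), and at -0.88 without FL 1 and EC-KO 2 together, where it was called (0.0389). The log2 ratio of Mthfd2 over Mthfd1l counts averaged 0.86 ± 0.26 in EC-KO and -0.65 ± 0.12 in FL libraries, that of Mthfd2 over Mthfd1 0.20 ± 0.34 in EC-KO and -1.25 ± 0.31 in FL libraries, and that of Mthfd2 over Mthfd2l 3.18 ± 0.56 in EC-KO and 1.04 ± 0.82 in FL libraries (SD, n = 3 each). None of these 3 ratios overlapped between groups (exact permutation p = 0.1 for each, the smallest possible; 0.1 after adjustment over the 6 ratios). These 3 share Mthfd2, which was itself called, and were chosen after seeing the values, so they describe the libraries only. Aldh1l1, the cytosolic counterpart of Aldh1l2, rose by 1.63 ± 0.23 (SE, adjusted p = 0.0018 in edgeR), with 7.48, 7.37 and 7.11 CPM in EC-KO 1, 2 and 3, against 2.54, 1.92 and 2.62 CPM in FL 1, 2 and 3.

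Aldh18a1 and Asns, which serve proline and asparagine, rose. As with Shmt2 and Aldh1l2, neither was called in every fit with 1 library left out. Aldh18a1, the pyrroline carboxylate synthase (ENSMUSG00000025007, chr19:40550257-40588463), was at 24.6, 18.2 and 23.3 CPM in EC-KO 1, 2 and 3, against 13.0, 14.7 and 12.0 CPM in FL 1, 2 and 3. The groups did not overlap, with EC-KO 2 nearest to FL. Its log2 fold change was 0.74 ± 0.19 (SE, adjusted p = 0.0192 in edgeR), and it was not called without EC-KO 1 (0.0765), EC-KO 3 (0.0642), FL 1 (0.0594), FL 2 (0.0506) or FL 3 (0.0970). Asns, the asparagine synthetase (ENSMUSG00000029752, chr6:7675169-7693254), was at 23.6, 39.9 and 20.0 CPM in EC-KO 1, 2 and 3, against 14.4, 12.4 and 16.8 CPM in FL 1, 2 and 3. EC-KO 2 stood far above the other EC-KO libraries, and EC-KO 3 was close to FL 3. The log2 fold change of Asns was 0.94 ± 0.27 (SE, adjusted p = 0.0319 in edgeR). Without EC-KO 2 it was 0.55, a smaller value that was still called (0.0412), and it was not called without EC-KO 1 (0.0570), FL 1 (0.0865), FL 2 (0.118) or FL 3 (0.0733), nor without FL 1 and EC-KO 2 together (0.54, 0.0564).

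**Figure D3:**
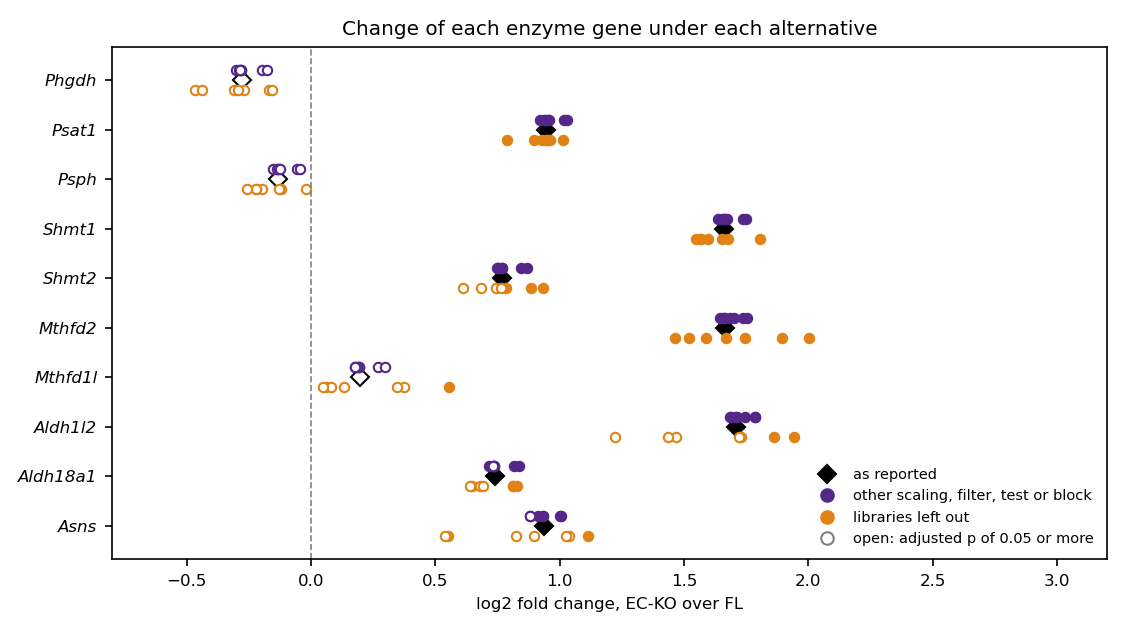
log2 fold change of each enzyme gene as reported (black), under another scaling, filter, test or the replicate block (purple) and with libraries left out (orange), where open symbols did not pass the test. Every value keeps its side of 0, and Psat1, Shmt1 and Mthfd2 have filled symbols throughout.

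EC-KO 2, which stood apart over all genes, was the lowest EC-KO library for 6 of the 10 enzymes and the highest for the other 4. Among FL libraries, FL 2 was the lowest for 2 and the highest for 6, and FL 1 the lowest for 4 and the highest for 3. Relative to the mean of all 6 libraries on the log2 CPM scale, Asns was at 0.27, 1.02 and 0.03 in EC-KO 1, 2 and 3 and Aldh1l2 at 0.48, 1.16 and 0.76. On the same scale Shmt2 was at 0.44, 0.04 and 0.64 in EC-KO 1, 2 and 3, and Mthfd1l at 0.36, -0.41 and 0.31. EC-KO 2 was also the EC-KO library with the highest sums of endothelial (8687 CPM, against 4832 and 4968 in EC-KO 1 and 3), epithelial (17893, against 12249 and 12082) and fibroblast markers (7473, against 4200 and 2534). The same held for macrophage (3377, against 2592 and 2554), smooth muscle and pericyte (453, against 310 and 363) and lymphatic markers (1058, against 613 and 532). The part of these sums in the pattern was not tested.

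**Figure D4:**
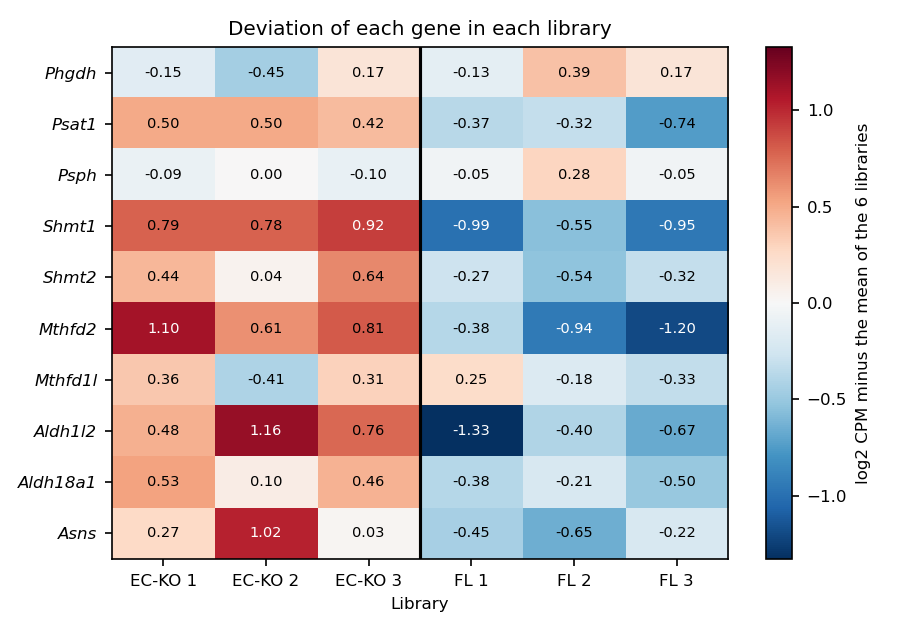
log2 CPM of each enzyme gene in each library minus the mean of the 6 libraries, EC-KO libraries left of the line and FL libraries right of it. Psat1, Shmt1 and Mthfd2 are high in all 3 EC-KO libraries, while Asns peaks in EC-KO 2 (1.02) and Mthfd1l is lowest there (-0.41).

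Levels were also set side by side per kilobase of exon, since counts grow with gene length. Shmt2 had the highest mean level in EC-KO libraries (14 ± 2.84 CPM per kb), followed by Asns (10.2 ± 3.89), Mthfd2 (8.90 ± 1.55), Phgdh (7.88 ± 1.72), Aldh18a1 (5.41 ± 0.826), Psat1 (4.70 ± 0.151), Mthfd1l (3.93 ± 1.06), Shmt1 (3.81 ± 0.215), Psph (1.03 ± 0.0397) and Aldh1l2 (0.164 ± 0.0415; SD, n = 3). Between neighbours in that order the libraries overlapped, except that Phgdh lay above Aldh18a1, Shmt1 above Psph and Psph above Aldh1l2 in all 3. In FL libraries the order of mean levels began with Phgdh (9.56 ± 1.69 CPM per kb) and Shmt2 (8.21 ± 0.779), followed by Asns (5.32 ± 0.807), Mthfd1l (3.43 ± 0.737), Aldh18a1 (3.24 ± 0.334), Mthfd2 (2.81 ± 0.846), Psat1 (2.45 ± 0.372), Shmt1 (1.20 ± 0.213), Psph (1.12 ± 0.157) and Aldh1l2 (0.0494 ± 0.0177; SD, n = 3). There the neighbours that did not overlap were Shmt2 above Asns, Asns above Mthfd1l, Psat1 above Shmt1 and Psph above Aldh1l2. Mthfd2 stood at the third place in EC-KO and at the sixth in FL libraries. The length counts all annotated exons of a gene and not the transcript in use, so the order between genes is approximate. The place of Phgdh is also uncertain, since reads shared with its near copies were not counted.

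Around the enzymes, the pathway genes were mixed. Over all tested genes 13.5% were called higher and 13.5% lower, which is the background for the counts of each list below. Among genes that use serine or glycine, 2 of 7 tested rose and 0 fell (median log2 fold change 0.06), and the 2 were the enzymes of transsulfuration, which turn homocysteine and serine into cysteine. Cth, cystathionine gamma-lyase, was at 3.29, 8.15 and 4.02 CPM in EC-KO 1, 2 and 3, against 0.493, 0.886 and 0.761 CPM in FL 1, 2 and 3 (log2 fold change 2.84, SE 0.43, edgeR adjusted p = 0.00237). Cbs, cystathionine beta-synthase, was at 2.45, 3.95 and 2.63 CPM in EC-KO 1, 2 and 3, against 0.910, 0.672 and 0.883 CPM in FL 1, 2 and 3 (1.87 ± 0.33 SE, adjusted p = 0.00478 in edgeR). Like Asns, both were highest in EC-KO 2. Both were called under all 14 alternatives, and the log2 ratio of Cth over Cbs was 0.69 ± 0.32 in EC-KO and -0.23 ± 0.63 in FL libraries (SD, n = 3 each; exact permutation p = 0.1, the smallest possible; 0.1 after adjustment over the 6 ratios). The groups nearly met, at 0.42 in EC-KO 1 and 0.39 in FL 2. In FL 1, 2 and 3 the ratios rest on 13, 29 and 25 counts of Cth and 24, 22 and 29 of Cbs.

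Among other genes of the folate cycle and folate transport, 4 of 18 tested rose and 3 fell (median 0.08). Beside Aldh1l1, the risers included Fpgs, which traps folate in the cell (0.95), and Ftcd, an enzyme of histidine breakdown that had 11, 20 and 12 counts in EC-KO and 0, 0 and 2 counts in FL libraries. Those that fell were Mtr, the methionine synthase (-0.67), Slc25a32, the mitochondrial folate carrier (-0.77), and Folr2 (-1.82), a folate receptor of macrophages with 5, 9 and 5 counts in EC-KO and 16, 28 and 20 in FL libraries. With 1 library left out the risers numbered 2 (without FL 2 or FL 3) to 4 and the falls 0 (without EC-KO 1, FL 2 or FL 3) to 4.

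Next to Aldh18a1, 1 of 6 genes of proline and ornithine metabolism rose and 0 fell (median 0.28). It was Oat, the ornithine aminotransferase (0.92), at 163 to 199 CPM in EC-KO and 94.6 to 103 CPM in FL libraries. Next to Asns, 1 of 8 genes of aspartate and glutamine metabolism rose and 2 fell (median -0.22). Aspg, an asparaginase, rose (1.83), with 48 to 75 counts in EC-KO and 13 to 16 counts in FL libraries, while Asrgl1 (-0.64) and Glud1, glutamate dehydrogenase (-0.46), fell. Asrgl1 and Glud1 were each called in 1 of the 6 fits with 1 library left out, and neither was called with upper-quartile scaling or library size alone.

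The counts of the purine and proliferation lists stand beside 13.5% called higher and 13.5% called lower over all tested genes. In purine synthesis, a main user of folate-borne carbon, 2 of 13 tested genes rose and 0 fell (median -0.31). They were Adss (0.70) and Prps1 (0.60). The rises numbered 0 without EC-KO 1, FL 2 or FL 3 and 1 without EC-KO 3, and 3 genes fell without EC-KO 2 and 5 without FL 1 and EC-KO 2 together. Of 20 proliferation genes 0 rose and 3 fell (median -0.35), namely Ccna2 (-1.21), Mki67 (-0.74) and Cdk1 (-0.84). Summed levels of this list overlapped, at 407 to 456 CPM in EC-KO and 391 to 444 CPM in FL libraries, and without EC-KO 2 there were 3 rises. Only 1 of the falls was called without EC-KO 1 or without FL 2, and 5 genes fell with DESeq2 or without FL 1 and EC-KO 2 together.

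**Figure D5:**
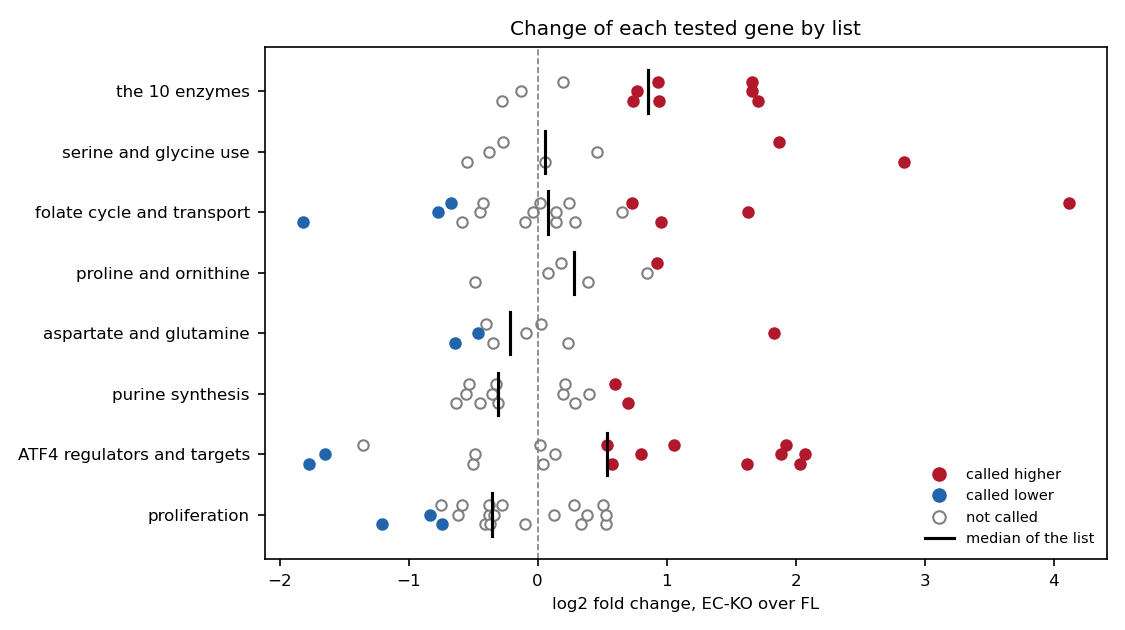
log2 fold change of EC-KO over FL for every tested gene of the 10 enzymes and of 7 further lists, 1 point per gene, with the median of each list as a vertical bar. The 10 enzymes have a median of 0.85, and the lists of the surrounding pathways have medians between -0.31 and 0.28. The medians are 0.53 for the ATF4 list and -0.35 for the proliferation list.

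Of 17 regulators and targets on the ATF4 side, 9 rose and 2 fell (median 0.53), beside 13.5% called higher and 13.5% called lower over all tested genes. The risers included Atf4 itself and the eIF2alpha kinases Eif2ak2 (0.58), Eif2ak3 (2.07) and Eif2ak4 (0.53), so not all were targets. Those not called were Eif2ak1 (0.13), Cebpb (-1.35), Cebpg (0.02), Sesn2 (0.04), Stc2 (-0.49) and Ppp1r15a (-0.50). Atf4 itself was at 802, 965 and 687 CPM in EC-KO 1, 2 and 3, against 486, 435 and 490 CPM in FL 1, 2 and 3 (0.80, SE 0.18, edgeR adjusted p = 0.0135), and was not called without FL 2 (0.0709) or FL 3 (0.0615). Chac1, which degrades glutathione (1.88), the stress regulator Nupr1 (2.04), the pseudokinase Trib3 (1.92) and Ddit3, which encodes CHOP (1.62), rose and were called under all 14 alternatives. Ddit4 (-1.77) and Vldlr (-1.65), listed as targets as well, fell, also under all 14. The number that rose was 5 without FL 2 or FL 3, 6 with EC-KO 1 or FL 1 left out, 7 with EC-KO 3 left out and 8 with EC-KO 2 left out. Among other known regulators of these enzymes, Myc was at 242, 224 and 212 CPM in EC-KO 1, 2 and 3, against 141, 101 and 93.9 CPM in FL 1, 2 and 3 (1.02, adjusted p = 0.00603 in edgeR). Nfe2l2, which encodes NRF2, was lower, at 255, 323 and 253 CPM in EC-KO 1, 2 and 3, against 399, 493 and 496 CPM in FL 1, 2 and 3 (-0.74, adjusted p = 0.0170 in edgeR), and was not called without EC-KO 1, EC-KO 3, FL 2 or FL 3 (up to 0.0699).

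The genes whose pattern over the 6 libraries was most like that of Asns, by the root mean square difference of log2 CPM values after subtracting each gene's mean, were Atf5 (0.07), Grb14 (0.08) and Col5a1 (0.09). Atf5, a transcription factor whose translation is controlled like that of ATF4, was at 30.6, 55.7 and 25.7 CPM in EC-KO 1, 2 and 3, against 17.2, 15 and 21.7 CPM in FL 1, 2 and 3. It shared with Asns the peak in EC-KO 2 and the highest FL value in FL 3. For Phgdh the most similar genes were Washc2 (0.07), Resf1 (0.08) and Zfp949 (0.09), and none of these 3 passed the test (adjusted p = 0.272, 0.259 and 0.381 in edgeR). These differences describe 6 libraries and say nothing of shared control.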

How the data were processed

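Members and gene lists were chosen with earlier results of these data known. The authors deposited raw counts for each Ensembl gene, in featureCounts layout per the file headers. STAR 2.7.10b, featureCounts 2.0.3 and mm10 appear in the submitters' processing notes. No source used here gives the strand setting or annotation release. A deposited summary of counts per class showed 9.10% to 11.5% of alignments set aside as multi-mapping. Symbols came from GENCODE M21, which shared 51948 identifiers with the table; 2.8% of these had the same start, so the table uses another build, and gene positions printed are those of GENCODE in GRCm38. Of identifiers sharing a symbol, the one with most counts was used. There are 2 columns of per-sample values that match no labelled sample, and they were not used.

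Counts were tested with edgeR 4.0.16 in R 4.3.3 (filterByExpr, TMM, robust glmQLFit, glmQLFTest, EC-KO against FL, no covariates, two-sided, Benjamini-Hochberg over 18562 genes, threshold 0.05). SE is the absolute log2 fold change over the square root of F, so it adds nothing to p, and 95% intervals follow from it. The script was tested on simulated data. Alternatives tried were scaling by RLE, by upper quartiles or by library size alone, omission of the filter, DESeq2 1.42.0, limma-voom 3.58.1, the replicate number as a block, each library left out, and FL 1 and EC-KO 2 left out together; adding copies to Phgdh was chosen after seeing the data. Log2 CPM used a prior count of 2 and ratios an added count of 0.5. Near copies were found with blastn 2.17.0 (identity of 95%, 150 bases or more). Promoter sequences were from RefSeq (GRCm38.p6); none was used for Aldh1l2. The named genes were the 10 enzymes, Fundc1, Atf4, Ddit3, Myc, Nfe2l2, the paralogues Mthfd1, Mthfd2l and Aldh1l1, up to 4 called genes per list and direction by smallest p, and the 3 genes most like Asns and Phgdh with an average log2 CPM of at least 1. The remaining genes of the ATF4 list were named as well. Replicates of 1 group differed by far more than sampling noise. A further named gene of the folate list is not reported here.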

Additional observations from a re-analysis of the deposited data

How the results depend on the processing

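None of the 10 enzymes changed direction under any of the 14 alternatives, and 0 were called lower in each. The number called higher, 7 as reported, was 7 under every other scaling, without the filter, with DESeq2 and with limma-voom. It was 3 to 6 with 1 library left out and 6 without FL 1 and EC-KO 2 together. The number of all genes called, 5029 as reported, was 2547 to 6740 with 1 library left out and 7554 without FL 1 and EC-KO 2 together. A lone library is never left in an arm, but fits on 5 or 4 libraries have fewer residual degrees of freedom. Psat1, Shmt1 and Mthfd2 were called under all 14 alternatives, with log2 fold changes of 0.79 to 1.03, 1.55 to 1.81 and 1.46 to 2.0. The median of all genes shifted to 0.11 with upper-quartile scaling and 0.12 with library size alone, against 0.03 as reported. Same-numbered libraries deviated from their group means with correlations of 0.05, 0.07 and -0.18, so no pairing by number was visible. These correlations cannot show whether samples were handled in pairs. With the replicate block 5 enzymes were called higher, Asns (0.0637) and Aldh18a1 (0.0532) not being called, and 3848 genes in all. Aldh1l2 had the fewest counts of the enzymes, 6 to 50 per library, and the cause of its lost calls was not tested.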

Other observations

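Genes of the serine and folate lists that had too few counts to be tested were Gldc, Gcat, Sdsl and Folr1. Gldc, the decarboxylase of the glycine cleavage system, had 18, 3 and 6 counts in EC-KO 1, 2 and 3 and 4, 1 and 46 counts in FL 1, 2 and 3, so that FL 3 held most of them. Gcat had 0, 3 and 5 counts in EC-KO and 3, 3 and 8 counts in FL libraries, and Sdsl had 1, 1 and 11 counts in EC-KO and 2, 6 and 2 counts in FL libraries. Folr1, a folate receptor of epithelial cells, had 2, 2 and 7 counts in EC-KO and 10, 2 and 2 counts in FL libraries.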
